A study of Mus musculus with 6 samples.

Results

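H3K27ac, the acetylation of histone H3 at lysine 27, was examined in mouse retina at 6 genes of fibroblast growth factor (FGF) signalling, the ligand genes Fgf2 and Fgf1 and the receptor genes Fgfr1, Fgfr2, Fgfr3 and Fgfr4. The genes were selected by name, and the H3K27ac level of the Fgf2 promoter was already known when they were selected, so the values of the members are a description and not independent evidence. A peak was counted as a member when it overlapped a transcription start site (TSS) within 2.5 kb, or the gene and 50 kb on either side, in the GENCODE annotation of GRCm38. The rule found 131 of the 135652 peaks of the 6 deposited lists, which merged into 35 of 39942 consensus regions, and 6 of 21938 protein-coding genes. It leaves out 1 Fgfr2 transcript, Fgfr2-217, whose TSS at chromosome 7, position 133123350, lies in the promoter of Ctbp2, and with that transcript kept the rule takes in 418 peaks and 120 regions.

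All samples were whole retinas of wild-type mice, 3 months of age when the pressure was first raised. In the 4xIOP group (3 lists) the intraocular pressure (IOP) had been raised to 30 mmHg for 1 h, 4 times, and retinas were taken on day 2 after the last elevation. The control group (3 lists) consisted of untreated contralateral eyes. Labels of the series also describe dasatinib or vehicle injections, but they assign neither to any of these samples. The lists hold called peaks and no read counts, so that a difference between lists may be of called signal only, and in whole retina fewer cells of a type and less acetylation per cell cannot be told apart.

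The names written inside the lists matched the labels for control replicate 3 and 4xIOP replicate 3. Control replicates 1 and 2 carried names of the pressure group, and replicates 1 and 2 of 4xIOP carried control names. The groups were kept as labelled. Control replicate 3 stood apart with 36509 peaks against 16195 to 21893 in the other lists, and it alone marked 1147 promoters. The mean density of fragments per 10 kb was between 87.4 and 173, and the weakest peak of a list held 9 to 12 fragments at its summit. A call also depended on the density around a site, so that more fragments could go uncalled where it was high. Of all 21938 protein-coding promoters, 39.5% were marked in all 6 lists and 42.4% in none. The promoters of 8 of 10 photoreceptor markers were marked in all 6 lists, as were 2 of 8 Müller glia markers and 2 of 10 bipolar, horizontal and amacrine markers (80.0%, 25.0% and 20.0%). No ganglion cell marker (0 of 8) and no marker of pigment epithelium, cornea, lens, muscle, liver or blood (0 of 21) was marked in all 6.

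Most FGFs are secreted factors that bind receptor tyrosine kinases together with heparan sulfate, and the active receptor signals through the adaptor FRS2 to RAS and the MAP kinases ERK1 and ERK2. SPRY and DUSP proteins feed back on this cascade. In the retina FGF2 is known as a survival factor for photoreceptors whose expression responds to injury, and FGF receptors are found on Müller glia and neurons. H3K27ac is found at active promoters and enhancers.

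Fgf2 (ENSMUSG00000037225.13, chromosome 3, 37348346 to 37410108, plus strand) was the only member whose promoter was marked in all 6 lists. The peak lay at 37348199 to 37349576 and in all 6 lists overlapped the first exon, within 2.5 kb of the TSS of the antisense gene Fgf2os. The stretches on either side of this exon are shown because the peak ran into them, into the first in control replicates 1 and 2 and into the second in every list except 4xIOP replicate 1. It ended inside the second stretch in control replicate 3 and 4xIOP replicate 2 and ran past it in the other 3 of these 5 lists. They are set beside stretches upstream of a TSS of 3 receptor genes. The Fgfr2 stretch ends at 130266809, well short of the nearest Fgfr2 TSS used here (130266263). The sequences run 5′ to 3′ on the strand of the gene, and capitals mark CG dinucleotides. The Fgf2 stretches and the Fgfr2 and Fgfr4 stretches touch no annotated exon, whereas the Fgfr3 stretch touches a non-coding one. The receptor stretches were taken from RefSeq promoter windows (GRCm38.p6) and the Fgf2 stretches from the genome sequence, with the locations chr3:37348146-37348345, chr3:37349025-37349174, chr7:130266809-130267008 (minus strand), chr5:33721474-33721673 and chr13:55152568-55152639 in order.
Fgf2 upstream: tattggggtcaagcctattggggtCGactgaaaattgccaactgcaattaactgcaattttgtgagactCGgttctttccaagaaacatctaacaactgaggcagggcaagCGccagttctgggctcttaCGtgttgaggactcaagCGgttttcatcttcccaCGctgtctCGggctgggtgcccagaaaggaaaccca
Fgf2 first intron: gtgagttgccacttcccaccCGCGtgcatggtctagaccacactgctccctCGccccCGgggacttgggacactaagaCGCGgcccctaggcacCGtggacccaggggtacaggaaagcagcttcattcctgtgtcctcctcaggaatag
Fgfr2 upstream: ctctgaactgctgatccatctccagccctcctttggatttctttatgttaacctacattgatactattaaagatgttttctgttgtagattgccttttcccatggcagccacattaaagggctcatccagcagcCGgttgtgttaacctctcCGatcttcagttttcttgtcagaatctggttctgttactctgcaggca
Fgfr3 upstream: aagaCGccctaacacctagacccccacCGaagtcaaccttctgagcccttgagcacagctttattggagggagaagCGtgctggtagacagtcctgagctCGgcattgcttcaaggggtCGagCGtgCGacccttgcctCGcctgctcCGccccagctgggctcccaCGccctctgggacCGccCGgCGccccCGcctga
Fgfr4 upstream: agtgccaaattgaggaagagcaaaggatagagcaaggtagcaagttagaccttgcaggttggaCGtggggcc

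In the RefSeq promoter window of 300 bp, the ratio of observed to expected CG dinucleotides was 0.842 at Fgf2, 0.726 and 0.778 at the 2 windows of Fgfr3, 0.649 at Fgfr4 and 0.282 at Fgfr2, against a median of 0.384 over 32851 windows. The Fgfr2 window (130266759 to 130267058) held none of the Fgfr2 TSS used here, the most upstream of which is at 130266263. Its ratio therefore does not describe the sequence at those TSS. Fgf2 and Fgfr3 were thus both above most windows in CG content (percentiles of 82.6 for Fgf2, 73.1 and 77.3 for Fgfr3), although their marking differed. Among genes marked in all 6 lists 85.2% had a ratio above 0.6, and among genes marked in no list 14.1% did. Of the 12 motifs searched on both strands, those of factors that respond to signals were TGANTCA for AP-1, TGACGTCA for the cyclic AMP response element, TTCNNNGAA for STAT proteins and GGGNNTTCC for NF-kB. The early growth response factors were represented by GCGTGGG, the ETS factors downstream of ERK by CCGGAA, and the photoreceptor factors CRX and OTX by TAATCC. The motifs common at promoters were GGGCGG for SP and KLF factors, the E-box written as CACGTG, and the TATA box written as TATAAA. The core of the CTCF motif was written as AGGGGGC and the MEF2 motif as TATTTATA, and matches of different motifs were allowed to overlap. The Fgf2 window held GGGCGG (SP/KLF) and GCGTGGG (EGR), and no match of the others. Of all promoter windows of this length 35.7% held GGGCGG and 5.04% held GCGTGGG. Both motifs were also found in the 2 windows of Fgfr3.

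At the Fgf2 promoter the summit held 101, 107 and 29 fragments in control replicates 1 to 3 and 19, 22 and 62 fragments in 4xIOP replicates 1 to 3. Divided by the genome-mean background of the list, which corrects for depth, the promoter level was 46.1, 31.7 and 11.7 in control and 9.45, 10.4 and 24.2 in 4xIOP. The levels were high in control replicates 1 and 2 and in 4xIOP replicate 3, low in the other 3 lists, and overlapped between the groups. These 3 high lists are also the 3 that carry the name of the pressure group, so the direction of the difference between groups depends on the labels. On the log2 scale the mean level was 4.69 ± 1.02 (SD, n = 3) in control and 3.74 ± 0.75 (SD, n = 3) in 4xIOP, a difference of -0.95, which was smaller than the SD in control and larger than that in 4xIOP. The difference was -0.53 when control replicate 1 was left out, -1.52 when control replicate 3 was, and -0.00247 on the log2 of the highest deposited fold at any Fgf2 TSS, which divides by the local density and in control replicate 1 came from a peak at a TSS 32.3 kb away. No test of this difference is given, because the gene was chosen with these levels known. Within its list the Fgf2 peak stood at percentile 99.6, 99.4 and 98.3 of all peaks by level in the 3 high lists, and at 38.5, 18.2 and 29.1 in control replicate 3 and 4xIOP replicates 1 and 2.

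**Figure D1:**
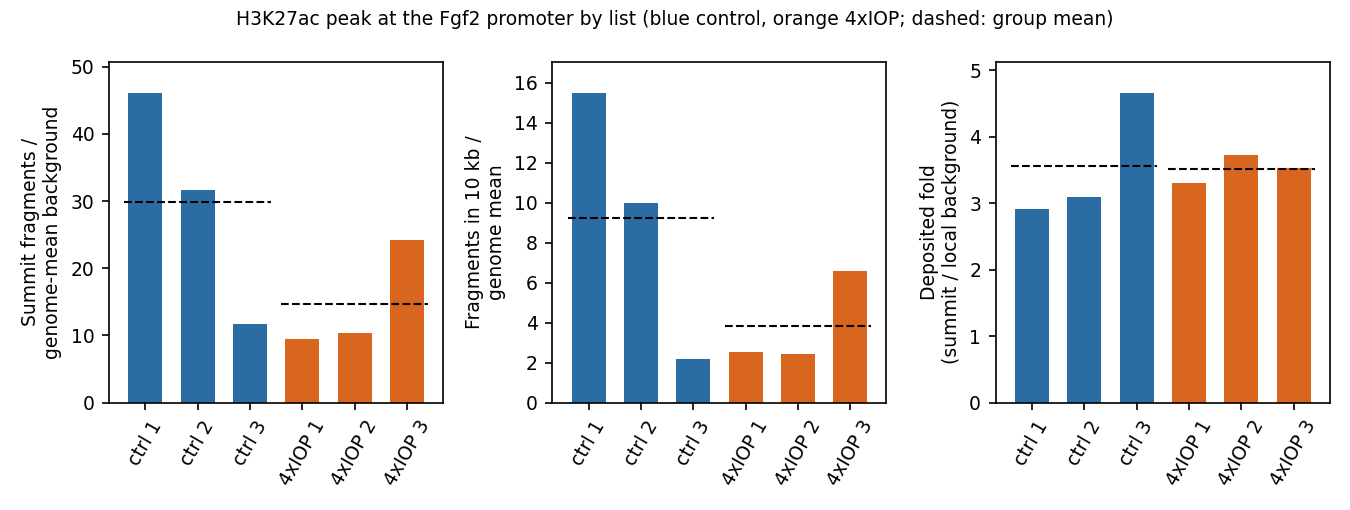
The peak at the Fgf2 promoter in each of the 6 lists (bars; blue control, orange 4xIOP, dashed line the group mean), as summit fragments over the genome-mean background, as fragments in 10 kb over the genome mean, and as the deposited fold. The first 2 measures are highest in control replicates 1 and 2 and 4xIOP replicate 3, whereas the fold stays between 2.92 and 4.66.

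The density of fragments around the promoter varied even more. The 10 kb around the summit held 1544, 1734 and 291 fragments in control and 220, 223 and 888 fragments in 4xIOP, which is 15.5, 10.0 and 2.20 times the genome mean in control and 2.52, 2.44 and 6.58 times in 4xIOP. This density is the local background against which the deposited fold was computed. The fold was 2.92, 3.10 and 4.66 in control and 3.30, 3.73 and 3.53 in 4xIOP, so the list with the highest level had the lowest fold. The peak was 1332, 1105 and 671 bp wide in control and 238, 327 and 757 bp wide in 4xIOP, in the same order of lists as the level. Between the lists the promoter level of Fgf2 spanned 2.29 on the log2 scale, the position 23 among 8668 genes marked in all 6 lists (median 1.47). Its 10 kb density spanned 2.81 on the log2 scale, the widest span of the 8668 genes (median 1.03). The gene was chosen with its promoter level known, so both positions are a description.

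Neighbouring promoters in the same lists give a comparison that does not depend on scaling. The promoter shared by Cetn4, a centrin gene, and Bbs12, a gene of Bardet-Biedl syndrome, lies 35.6 kb upstream and held 90, 98 and 141 fragments in control and 67, 72 and 65 fragments in 4xIOP. The Fgf2 summit was 1.12, 1.09 and 0.206 times this value in control and 0.284, 0.306 and 0.954 times in 4xIOP. The promoter shared by Nudt6, which lies antisense to Fgf2 at its 3′ end, and Spata5 held 58, 60 and 57 fragments in control and 27, 27 and 52 fragments in 4xIOP. The ratio of Fgf2 to this promoter was 1.74, 1.78 and 0.509 in control and 0.704, 0.815 and 1.19 in 4xIOP. By either ratio the same 3 lists were high. The ratio of the Cetn4/Bbs12 promoter to the Nudt6/Spata5 promoter was 1.55, 1.63 and 2.47 in control and 2.48, 2.67 and 1.25 in 4xIOP. It was low in these 3 lists, so the neighbours also differed along this split, without Fgf2. The Nudt6/Spata5 value came from a separate region in control replicate 3 and 4xIOP replicate 2. The region called there in all 6 lists held 51 and 21 fragments in those lists, against 29 and 22 at Fgf2.

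Within the first intron of Fgf2, 2 further regions were called in 4 or more lists. The region 6.2 kb from the TSS (chromosome 3, 37354246 to 37354765) had a peak of 68, 67 and 17 fragments in control and of 50 fragments in 4xIOP replicate 3, and none in 4xIOP replicates 1 and 2. Its density was 14.4, 9.05 and 2.20 times the genome mean in control and 6.36 times in 4xIOP replicate 3. This window overlaps that of the promoter, so the densities are not separate measurements. The region 16.6 kb from the TSS (37364475 to 37365133) was called in all 6 lists with 49, 38 and 35 fragments in control and 18, 25 and 29 fragments in 4xIOP. As a level this was 22.4, 11.2 and 14.2 in control and 8.95, 11.8 and 11.3 in 4xIOP, and the groups overlapped. The density there was 5.94, 3.85 and 2.53 times the mean in control and 2.54, 2.53 and 2.82 times in 4xIOP, closer between the lists than at the promoter.

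**Figure D2:**
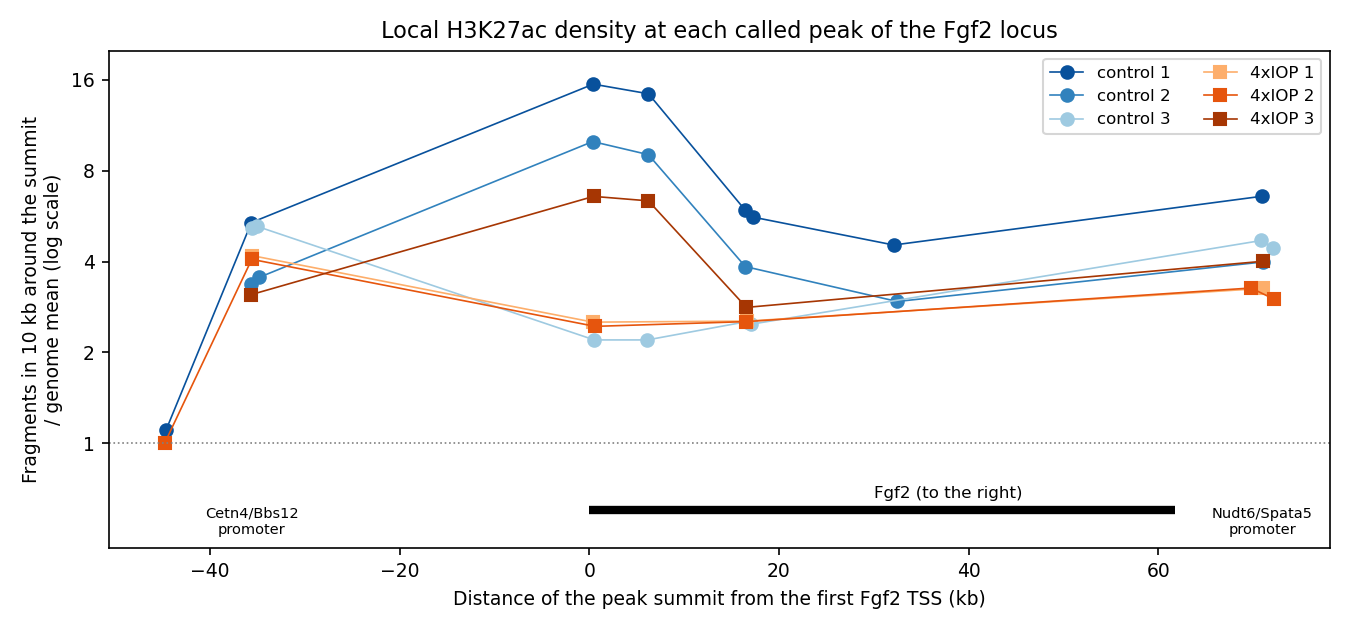
Fragments in 10 kb around each called peak of the Fgf2 locus, over the genome mean (log axis), against the distance of the summit from the first Fgf2 TSS in kb. Circles are control and squares 4xIOP lists, the lines join the peaks of 1 list, and the black bar is the gene. Around the TSS the lists range from 2.20 to 15.5, and at the Cetn4/Bbs12 promoter 35.6 kb upstream from 3.11 to 5.39.

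The 300 bp around the median summit of both intronic regions are shown because they are the distal regions of Fgf2 called in most lists (chr3:37354435-37354734 and chr3:37364766-37365065, plus strand). Capitals mark the only match to any of the 12 motifs in each, TGANTCA (AP-1) in the first and TTCNNNGAA (STAT) in the second. Of 19172 TSS-distal consensus regions, cut to the same length, 8.55% held the first motif and 8.06% the second.
Fgf2 6.2 kb region: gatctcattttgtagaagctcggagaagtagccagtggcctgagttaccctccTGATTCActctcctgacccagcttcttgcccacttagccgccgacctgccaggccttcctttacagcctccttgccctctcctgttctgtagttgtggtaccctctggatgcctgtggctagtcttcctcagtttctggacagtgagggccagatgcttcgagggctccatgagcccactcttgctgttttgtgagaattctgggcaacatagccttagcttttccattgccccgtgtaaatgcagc
Fgf2 16.6 kb region: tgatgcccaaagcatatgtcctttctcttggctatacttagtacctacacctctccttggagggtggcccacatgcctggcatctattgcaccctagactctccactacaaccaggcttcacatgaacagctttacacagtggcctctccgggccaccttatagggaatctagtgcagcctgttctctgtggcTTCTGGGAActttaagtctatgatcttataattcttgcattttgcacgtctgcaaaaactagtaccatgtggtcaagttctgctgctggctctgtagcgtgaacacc

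The other regions of the locus were weaker or called in few lists. A second Fgf2 TSS, at 37380755, had a peak in control replicates 1 and 2 only (32 and 29 fragments). A region 17.2 kb from the first TSS was called in control replicates 1 and 3 (31 and 22 fragments). The region 44.7 kb upstream was called in control replicate 1 and 4xIOP replicate 2, at 11 and 12 fragments, close to the fewest called in these lists (9 in each).

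Fgf1, the ligand that binds all FGF receptors (ENSMUSG00000036585.16, chromosome 18, 38838673 to 38929472), had no promoter peak in any list. Its locus held 4 distal regions, each called in 1 list with 13 to 17 fragments. Of these, 3 were in control lists and 1 in 4xIOP replicate 1, and no region recurred, although those 14.4 and 14.5 kb upstream lay side by side.

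The receptor promoters were marked in control replicate 3 or not at all. Fgfr1 (ENSMUSG00000031565.18, chromosome 8) had a peak of 15 fragments at 25519005 to 25519264, in the first exon. Fgfr3 (ENSMUSG00000054252.18, chromosome 5), the receptor that restrains bone growth, had a peak of 21 fragments at 33721971 to 33722284. Fgfr4 (ENSMUSG00000005320.9, chromosome 13), which serves FGF15 signalling in liver, had a peak of 12 fragments at 55152712 to 55153205. Their levels in that list were 6.08, 8.51 and 4.86 and stood at percentiles 10.1, 24.3 and 2.76 of its peaks. Fgfr2 (ENSMUSG00000030849.18, chromosome 7) had no promoter peak. So 3 of 4 receptor promoters were marked with control replicate 3 and 0 without it, beside 5.23% of all protein-coding promoters that were marked in this list alone. No member promoter was marked in all 3 lists of 1 group and no list of the other, which 0.360% of promoters were in the direction of control and 0% in the direction of 4xIOP.

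Regions away from the receptor promoters recurred more often. In an intron of Fgfr2, 28.5 kb from its TSS, a region (chromosome 7, 130237233 to 130237994) was called in 5 lists with 34, 29 and 25 fragments in control and with 20 and 21 fragments in 4xIOP replicates 2 and 3. The summits lay at 2 places within the region, near its start in control replicate 3 and 4xIOP replicate 2 and near its end in the other 3 lists. The region 26.2 kb upstream of Fgfr3 (chromosome 5, 33695110 to 33696179) was called in all 6 lists, with 41, 53 and 120 fragments in control and 61, 58 and 33 fragments in 4xIOP. As a level this was 18.7, 15.7 and 48.6 in control and 30.3, 27.3 and 12.9 in 4xIOP. The 3 lists that were high at the Fgf2 promoter were the 3 lowest here. Over all peaks of a list the median level was 13.2, 9.47 and 15.0 in control and 14.4, 13.2 and 10.1 in 4xIOP, so this order is not particular to the region. Its 300 bp window had a CG ratio of 0.902, against a median of 0.205 over TSS-distal regions.

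Downstream of Fgfr4, the region at 37.4 kb (chromosome 13, 55189492 to 55190296) was called in all 6 lists, with 54, 61 and 92 fragments in control and 50, 56 and 25 fragments in 4xIOP. The level ran from 9.74 in 4xIOP replicate 3 to 37.3 in control replicate 3, and overlapped between the groups, since control replicate 1 (24.6) lay below 4xIOP replicates 1 and 2 (24.9 and 26.4). A second region 38.3 kb away was called in 5 lists at 33 to 51 fragments and not in 4xIOP replicate 3, the list with the fewest peaks. The region at 19.4 kb was called in 3 control lists and 1 4xIOP list at 16 to 27 fragments, and that at 16.4 kb in 2 control lists at 22 and 24 fragments. Nothing distal was called within 50 kb of Fgfr1.

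**Figure D3:**
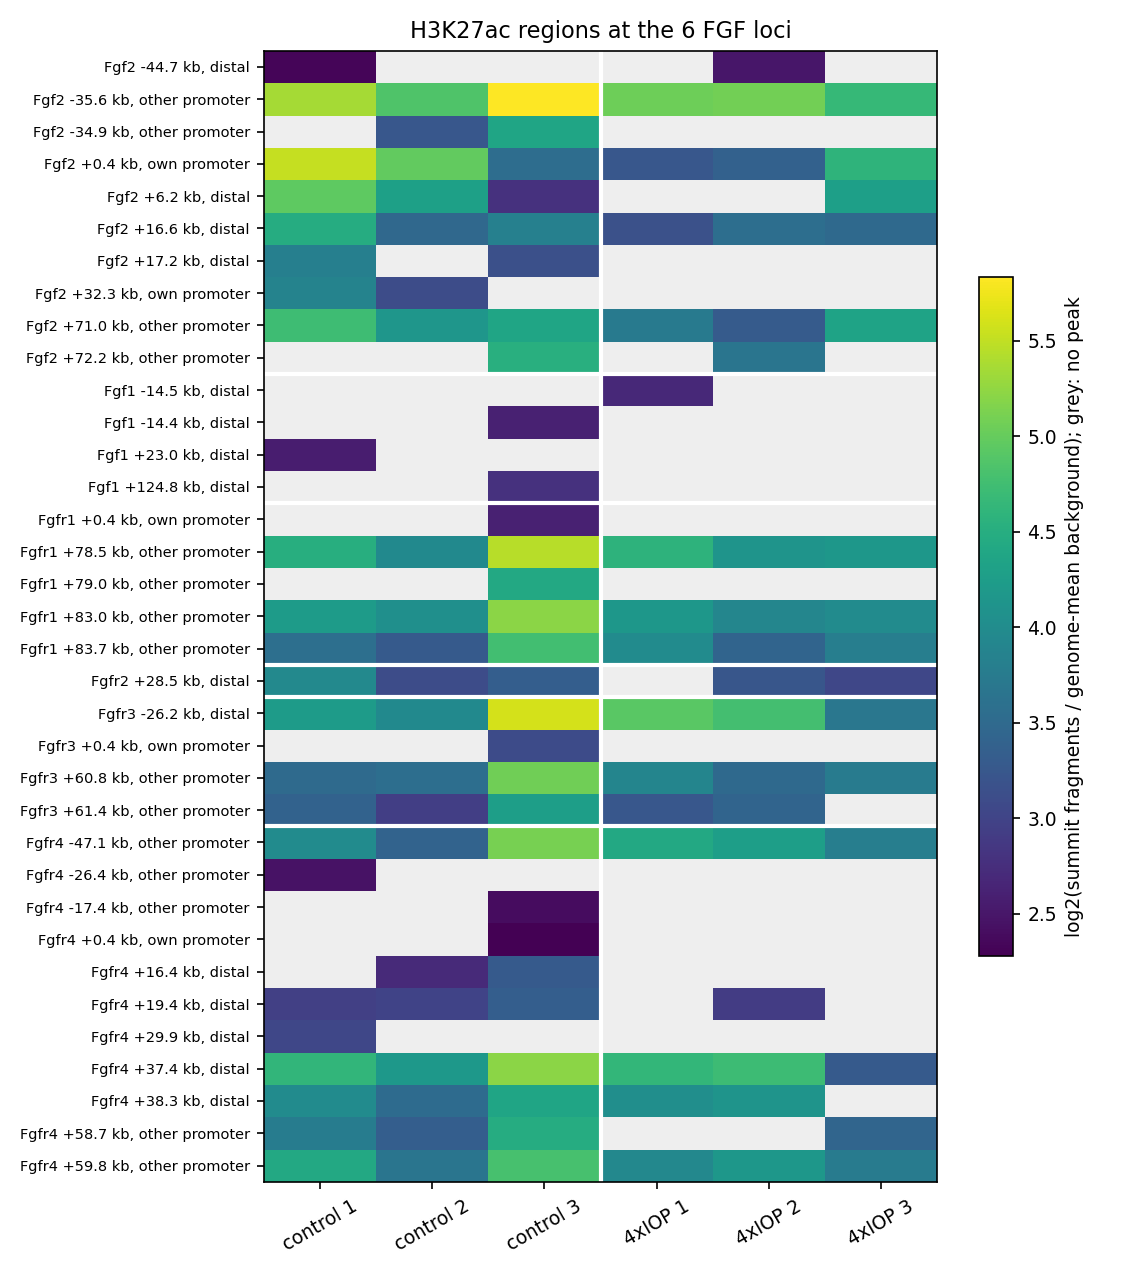
The 35 consensus regions at the 6 loci (rows, with the distance in kb from the first TSS of the gene) in each of the 6 lists (columns). Colour is log2 of summit fragments over the genome-mean background and grey is no peak: of the member promoters only that of Fgf2 is filled in all 6 lists, and 12 of the 35 rows are.

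The promoters of neighbouring genes made up a large part of the loci. Next to Fgfr1, the promoter of Letm2, which codes for a mitochondrial membrane protein and is shared with D830025C05Rik and Gm45570, stood at levels 22.8, 15.7 and 43.7 in control and 23.9, 17.4 and 17.9 in 4xIOP. That of Nsd3, a histone methyltransferase, ranged from 15.1 to 37.3. Next to Fgfr3, the promoter of Letm1 ranged from 11.3 to 33.6, and next to Fgfr4 that of Zfp346 from 10.6 to 34.4 and that of Nsd1, which methylates histone H3, from 12.7 to 27.9. In each of these 5 promoters control replicate 3 was the highest list, unlike at Fgf2. Gm46415, Gm17617 and, at the Fgfr3 promoter, G630022F23Rik were each marked in 1 list.

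Across the 6 loci the lists held 25, 23 and 29 peaks in control and 17, 19 and 18 peaks in 4xIOP, or 0.114%, 0.116% and 0.0794% of their peaks against 0.0836%, 0.0913% and 0.111%. The counts did not overlap between the groups as labelled, whereas the percentages did. With the same number of top peaks taken from each list the order turned, to 14, 15 and 15 in control against 16, 16 and 18 in 4xIOP. Distal peaks were 11, 8 and 11 in control and 5, 7 and 5 in 4xIOP. Over whole lists, peaks outside promoters made up 32.3%, 30.0% and 44.8% of peaks in control against 31.0%, 35.6% and 22.7% in 4xIOP, and the distal peaks of the 6 loci were 0.155%, 0.134% and 0.0673% of them against 0.0793%, 0.0945% and 0.136%, which overlapped. Peaks at promoters of other genes were 12, 13 and 14 in control and 11, 11 and 12 in 4xIOP. No region of the 35 was called in all 3 lists of 1 group and no list of the other, beside 1.05% of all consensus regions in the direction of control and 0.0150% in that of 4xIOP.

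The 12 regions called in all 6 lists were part of a limma fit over 10529 shared regions, on normal scores of the rank of fold within a list. None was called at an adjusted p under 0.05 in either direction, nor was any of the 10529 (0% higher and 0% lower in 4xIOP), of which 334 had an unadjusted p under 0.05. At the Fgf2 promoter the score was 0.26 ± 0.32 (SE) higher in 4xIOP, given as a description. At the intronic region 16.6 kb away it was 0.21 ± 0.35 (SE) higher, with an adjusted p of 0.9999 by limma, and it turned to -0.09 when control replicate 2 was left out and to -0.01 when 4xIOP replicate 2 was. With ranks of fragments in place of fold both differences turned to -1.14 and -0.51. With 1 list left out, the score at the Fgf2 promoter was lowest (0.06) when control replicate 1 was missing and highest (0.48) when control replicate 3 was. The smallest unadjusted p at the loci was 0.0441 at the Zfp346 promoter (0.67 ± 0.30, SE), with an adjusted p of 0.9999 by limma.

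The promoters of other FGF pathway genes were described by role from a list of 79 genes found in the annotation. Of the signal transduction genes 20 of 22 (90.9%) were marked in all 6 lists, beside 39.5% of all protein-coding genes. These 20 include Map2k2, a kinase that acts above ERK, and the RAS gene Nras (mean fold percentiles of 89.3 and 87.6). The Map2k2 promoter stood at levels 16.4 to 41.7 in the 6 lists, highest in control replicate 3. Gab1 and Shc1, the 2 others (named after their values were seen), were marked in 5 and 4 lists. Of the co-receptors and heparan sulfate genes 9 of 18 were marked in all 6 lists, beside the same 39.5% of all genes, led by Ext2, which builds heparan sulfate chains, Fgfbp3, an FGF binding protein, and Hs2st1, a heparan sulfate sulfotransferase (fold percentiles of 97.8, 84.1 and 78.3). The Fgfbp3 promoter differed in pattern from Fgf2, at levels 10.9, 7.69 and 38.9 in control and 16.9, 13.2 and 21.0 in 4xIOP.

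Feedback and target genes were marked in all 6 lists in 8 of 19 cases (42.1%, beside 39.5% of all protein-coding genes), among them Il17rd and Spred1, inhibitors of the cascade, and Cbl, a ubiquitin ligase for the receptors (fold percentiles of 70.8, 69.6 and 55.2). Of the 20 other FGF genes only Fgf20 was marked in all 6 lists, at levels 23.7, 17.5 and 39.7 in control and 23.9, 18.8 and 16.4 in 4xIOP. A further 5 promoters of FGF genes were marked in control replicate 3 alone (Fgf8, Fgf12, Fgf13, Fgf14 and Fgf15, named after their values were seen), and 11 in no list. Fgf12, Fgf13 and Fgf14 code for FGF homologous factors, which stay inside the cell and are not receptor ligands. The counts were 25.0% and 55.0% of the 20 genes, beside 5.23% and 42.4% of all protein-coding genes. Over the whole list 57.0%, 55.7% and 75.9% of promoters were marked in control and 57.0%, 55.7% and 54.4% in 4xIOP, beside 48.6%, 46.2% and 56.9% and 47.4%, 45.6% and 44.6% of all protein-coding genes. The difference of the means, 4xIOP minus control, was -7.17 percentage points, and -0.63 without control replicate 3. No pathway gene was marked in all lists of 1 group and none of the other.

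**Figure D4:**
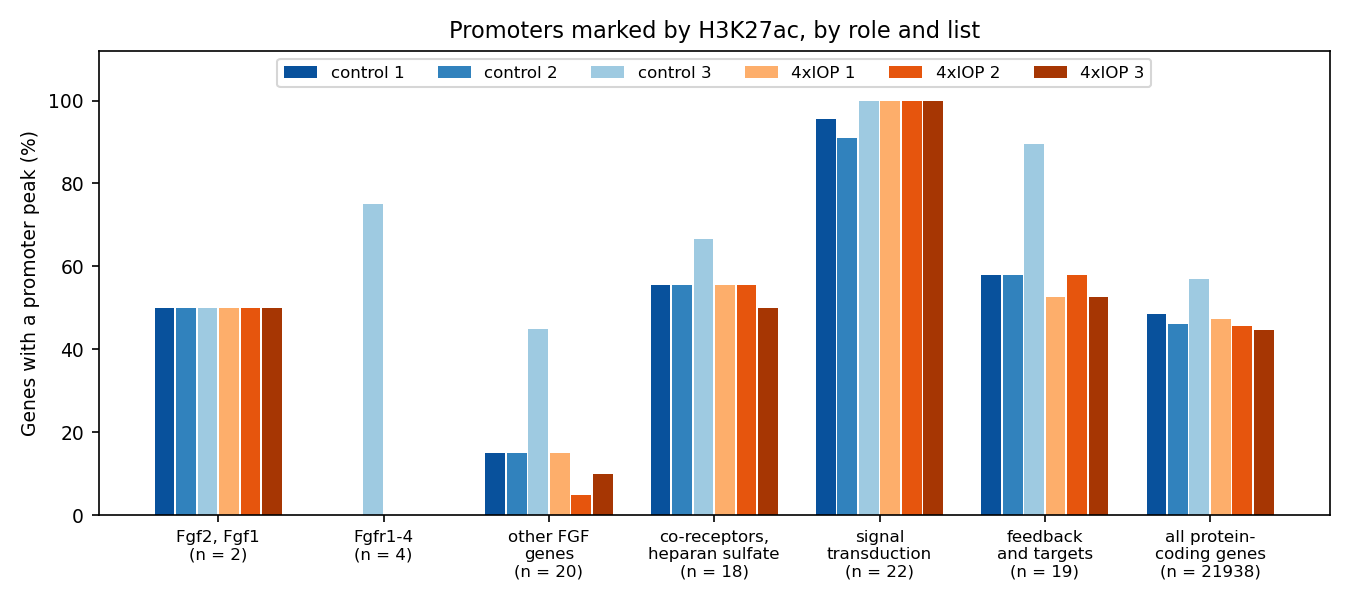
Percent of genes with a promoter peak in each list, by role in FGF signalling and for all protein-coding genes (n under each label; blue control, orange 4xIOP). Signal transduction genes reach 90.9% to 100% in every list, and the receptors are marked in control replicate 3 only (75.0%).

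Of the 8667 other genes marked in all 6 lists, those with the promoter level most like Fgf2 over the 6 lists were Kcng4, a potassium channel subunit (Pearson r of 0.929), Irgm1, an interferon-induced GTPase (0.929), the sulfurtransferase genes Tst and Mpst, which share 1 promoter (0.898), and Epo, the erythropoietin gene (0.869). The coefficients are over 6 points that share their library with every other gene, and are given as a description. The median coefficient was -0.451, and 2 genes were above 0.9. The peak assigned to Epo also lies in the promoter of Gnb2, at the start of a long Epo transcript. The Kcng4 level was 28.3, 20.7 and 14.2 in control and 9.95, 8.01 and 15.2 in 4xIOP, and that of Epo was 29.7, 21.0 and 16.2 in control and 8.95, 6.60 and 14.4 in 4xIOP. All 5 had a smaller span over the lists than Fgf2 (0.91 to 2.17 on the log2 scale).

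**Figure D5:**
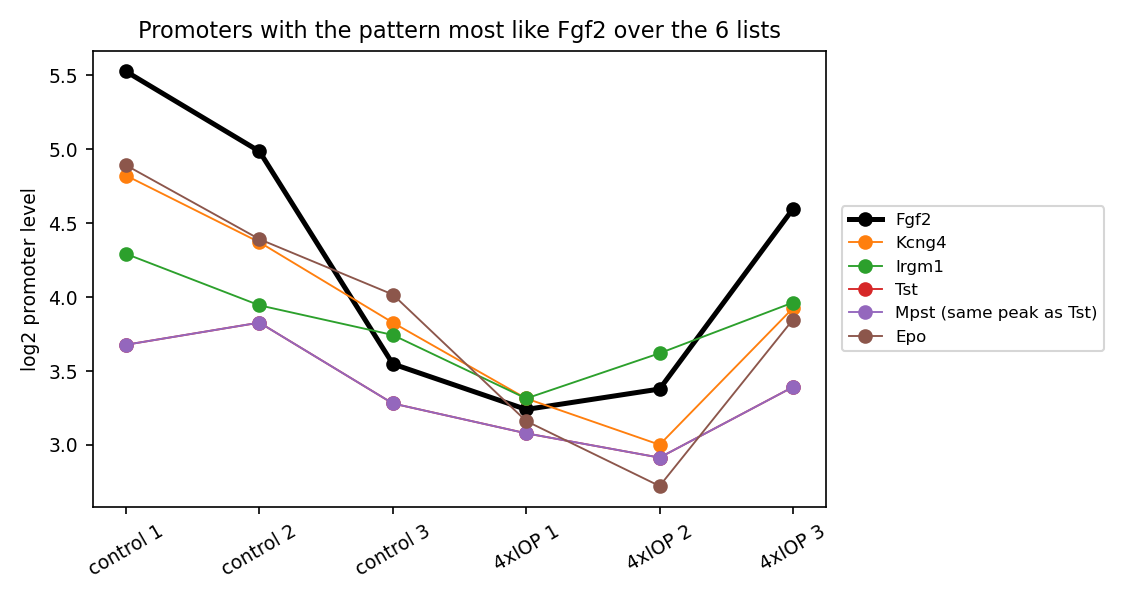
log2 promoter level (summit fragments over the genome-mean background) of Fgf2 and the 5 genes with the most similar pattern in each of the 6 lists; lines only join the values of 1 gene. Fgf2 spans 2.29 on this scale and the others 0.91 to 2.17.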

How the data were processed

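H3K27ac ChIP-seq of mouse retina was represented by 1 narrowPeak list per sample. The fold of each peak (a ratio of summit to local background) and its −log10 p and −log10 q were deposited by the authors. The submitters' notes name mm10, STAR 2.7.8a, MACS2, HOMER, edgeR and bedtools 2.29.2 without saying which served these files. Weakest peaks had a −log10 q of 1.31 to 1.40.

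Summit fragments and local background were recovered from fold and p under the Poisson model of the caller, which returned p within 0.001 in at least 99.99% of peaks per list. Backgrounds above the lowest one were whole fragment numbers in 10 kb (tolerance 0.05) in 100.0% of peaks, and the lowest one was taken as the genome mean. Promoters were 2.5 kb on either side of a GENCODE vM21 basic TSS, lists were joined by 1 bp of overlap, and no peak ended past a GRCm38 chromosome. Differences were tested with limma 3.58.1 (R 4.3.3) and Benjamini-Hochberg adjustment. The fit and the recovery were also run on simulated data, with outcomes not given here. An absent call does not show that a region did not change. The labels do not say that the 3 lists per group came from separate animals, and the p-values measure the spread between these samples. The members and gene lists were chosen with earlier results of these data known, and the exact permutation test laid out for the Fgf2 promoter level is therefore not given. Named neighbours were genes with a marked promoter in a locus, named pathway genes the 3 per role with the highest mean fold percentile among those marked in all 6 lists, and genes like Fgf2 the 5 with the highest correlation. A gene that the rule names among the signal transduction genes is not reported here. Spry3 of the pathway list was not found among the protein-coding genes used. Alternatives covered the peak threshold, list length, measure, promoter width, flank, overlap, gene model, fragment-length class, replicate number and each list left out.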

Additional observations from a re-analysis of the deposited data

How the results depend on the processing

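The limma fit over shared regions called 0 regions in either direction under each alternative run (a −log10 q of at least 5, the same number of top peaks, ranks of fragments, the replicate block, the fragment-length class as a term, and each list left out). Same-numbered lists did not deviate together (correlations of -0.0208, -0.0571 and -0.146). The controls were contralateral eyes, and these values cannot show whether same-numbered lists came from the same animals. With the replicate block limma called 0. In this balanced design the block cannot change the mean Fgf2 promoter difference (-0.95), whose differences by number were -2.29, -1.61 and 1.04. The Fgf2 promoter difference, with groups as labelled, was -0.95 on the log2 scale. It moved to -0.00247 with the highest deposited fold at any Fgf2 TSS, which divides by the local density. Under the other alternatives on the log2 scale it kept its direction and moved by less than 0.89, the SD within groups. It was -0.53 to -1.52 with a list left out and -0.69 with median scaling. With the 10 kb density, which was chosen after seeing the data, it was -1.03. As a normal score of rank the difference was -1.32, in a unit that this SD does not measure. At a −log10 q of at least 5 the promoter was not called in every list and no value could be given. The rank of fold at the Fgf2 promoter and the region 16.6 kb away reversed with ranks of fragments (-1.14 and -0.51), and that of the 16.6 kb region also without control replicate 2 (-0.09) and without 4xIOP replicate 2 (-0.01), in a range of -0.09 to 0.45 over the lists left out. The difference in peaks at the 6 loci (-7.67 per list) was -4.67 with a flank of 10 kb, -26.00 with Fgfr2-217 kept (chosen after seeing the data), 2.00 with the same number of top peaks, and -6.00 to -9.00 with a list left out. The pathway difference (-7.17 percentage points) was -2.51 with the percent of all protein-coding genes subtracted, -2.11 with the same number of top peaks, -11.81 at a −log10 q of at least 5, and -0.63 to -10.76 with a list left out, the smallest without control replicate 3. The cause of these changes was not tested. A member promoter without a peak may hold signal that was not called, and where the local density is high this can exceed the 9 to 12 fragments of the weakest call.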
